A study of Arabidopsis thaliana with 4 samples.

Results

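Small shifts of the 3′ splice site were examined in Arabidopsis thaliana seedlings. An event was taken from the deposited list of all splicing events when its 5′ splice site was the representative one and its 3′ splice site lay 1 to 12 bases away from the representative site. The rule found 1864 events in 1623 genes, out of 22449 splicing events of all kinds and 7723 events with an alternative 5′ or 3′ splice site. Of the 1864 events, 871 shifted the splice site by a multiple of 3 bases and 993 by another number. The set was defined by position alone, and no measured percent entered the rule.

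The seedlings were wild-type Col-0, grown for 4 days in the dark on plates. The 4 groups were polysomal mRNA after 4 h of light, polysomal mRNA of dark-grown seedlings, total mRNA after 4 h of light and total mRNA of dark-grown seedlings. Each group had 1 library of whole seedlings, so no difference below has a replicate check and no p-value is given. Polysomal RNA was extracted with phenol and chloroform and total RNA by the Pine Tree method, so RNA fraction and extraction method cannot be told apart. For protochlorophyllide oxidoreductase A (PORA), a dark-expressed enzyme of chlorophyll synthesis that light switches off, the level was 3.31 RPKM in polysomal light, 311 RPKM in polysomal dark, 2.00 RPKM in total light and 110 RPKM in total dark mRNA. PORA was thus lower in the light in both fractions.

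At the end of an intron, splicing factor 1 binds the branch point, the large U2AF subunit binds the pyrimidine-rich tract and the small U2AF subunit binds the AG at the 3′ splice site. The second catalytic step, in which helper proteins such as PRP18 and SLU7 take part, joins the exon to an AG, and where AGs lie close together more than one of them can be used. A pair of AGs separated by 3 bases is known as a tandem or NAGNAG acceptor. Use of the other AG then adds or removes 1 codon, whereas a shift by a number that is not a multiple of 3 changes the reading frame. Transcripts with an early stop codon can be degraded by nonsense-mediated decay (NMD), which depends on UPF1, UPF2 and UPF3.

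The sequences of the members described below show how close the competing sites are. Each runs 5′ to 3′ on the gene's strand, with the representative AG and the alternative AG in capitals, and comes from the RefSeq genome TAIR10.1. A positive offset lies in the intron and lengthens the exon, and a negative offset lies in the exon and shortens it. The first set holds tandem sites 3 bases apart, in which the alternative AG lies downstream (offset -3). Both AGs of RS41 and CST are preceded by different letters, and those of ARPC3 by the same letter.
RS41, chr5:21133255-21133304, plus strand: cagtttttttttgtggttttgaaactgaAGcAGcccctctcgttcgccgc
CST, chr4:16896591-16896640, plus strand: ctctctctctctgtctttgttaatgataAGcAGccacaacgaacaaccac
AT5G63550, chr5:25446514-25446563, plus strand: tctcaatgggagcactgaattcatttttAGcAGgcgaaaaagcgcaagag
ARPC3, chr1:22265734-22265763, minus strand: agatcttaattgcAGcAGatctaccttcga

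The second set holds the members with the largest falls in light in total mRNA among events with at least 50 reads in both total libraries, and SR34a from the list of SR proteins. In SETH2 (-11) and ALG12 (-5) the alternative AG is the downstream one, and in AT3G51390 (+5), AT4G28030 (+9), NEF1 (+9) and SR34a (+12) it is the upstream one.
SETH2, chr3:16505961-16506010, plus strand: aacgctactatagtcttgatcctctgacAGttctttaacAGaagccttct
ALG12, chr1:407438-407487, plus strand: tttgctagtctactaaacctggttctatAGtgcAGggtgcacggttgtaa
AT3G51390, chr3:19076642-19076691, plus strand: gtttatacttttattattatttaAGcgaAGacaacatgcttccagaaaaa
AT4G28030, chr4:13938606-13938655, minus strand: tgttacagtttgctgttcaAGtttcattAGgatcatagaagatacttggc
NEF1, chr5:4294816-4294865, plus strand: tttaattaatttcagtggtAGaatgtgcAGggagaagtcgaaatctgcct
SR34a, chr3:18333900-18333949, plus strand: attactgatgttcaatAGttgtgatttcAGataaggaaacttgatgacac

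The third set holds members whose alternative site was used more in the light (AT4G38200 at +10, AT5G66250 at +5 and SUVH9 at -9) and members with a 5′ UTR site, not a multiple of 3 away, in most transcripts of a fraction (AT2G26500 at +4 and SNL2 at +5).
AT4G38200, chr4:17916882-17916931, plus strand: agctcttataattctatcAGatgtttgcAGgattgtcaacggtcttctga
AT5G66250, chr5:26469034-26469063, plus strand: ttttgtttAGgatAGtatggctgaaaagga
SUVH9, chr4:7826727-7826756, minus strand: gaaaaaacacattAGattctgtAGgaaaat
AT2G26500, chr2:11270353-11270382, plus strand: ttctttttcAGcaAGgaatggcgacagcag
SNL2, chr5:4865557-4865586, minus strand: ttttactcAGagcAGcaatgaagcgaatta

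The measure throughout is the percent of reads that joined the upstream exon to the alternative site, out of the reads at the alternative and representative sites together. In total mRNA the sum of both kinds of read could be recovered from the deposited reads and percent, with a median of 95.5 reads in total light and 67 in total dark mRNA. Of the 1864 events, 1609 had at least 20 such reads in both total libraries, and medians and counts below are over these. For polysomal mRNA percents without reads were deposited, so depth is unknown there. Polysomal percents were listed for 757 events (40.6%), of which 680 also passed the minimum of 20 reads. Intervals given for total mRNA are exact Clopper-Pearson 95% intervals and cover counting error only. In 32 introns more than one alternative site was listed (65 events), and these share the reads of 1 representative site, so their percents do not add up.

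Alternative sites on the exon side outnumbered those on the intron side, with 1274 against 590 events. The single most frequent offset was -3, with 381 events, and the mirror offset of +3 had 163. Next came -4 with 174 events, -5 with 166, -6 with 137 and +5 with 117, whereas each offset of 7 to 12 bases had at most 82. Shifts of 3 bases made up 29.2% of all events.

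How often an offset appeared can be set against how often an AG stood there at all, searched as the letters AG on the transcribed strand. Of 129098 annotated 3′ splice sites in RefSeq, 4.73% had an AG ending 3 bases into the exon and 2.23% had one ending 3 bases back in the intron. Only 0.966% had an AG at +5 and 0.595% at +4. Placed members at an offset can be given as a percent of the annotated sites with an AG there. This share was 9.22% at +5, 7.81% at +4, 5.80% at -3, 5.26% at +3, 2.40% at -5, 2.15% at -4 and 0.398% at -12. Relative to the AGs present, used alternative sites were thus densest at +5 and +4, and on the exon side at -3.

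Both sites could be placed on RefSeq transcript models, with an AG at each, for 1723 events (92.4%). Of the remaining 141, 122 had no AG at the alternative site, including all 49 events with a shift of 1 base. Those of 1 base had a median percent of 7.17 in light and 6.68 in dark total mRNA and polysomal percents for only 4 of 48. Of the placed events, 1476 lay in coding sequence, 202 in 5′ UTRs, 43 in 3′ UTRs and 2 at a start or stop codon. The share of multiples of 3 was 46.8% in coding sequence, 53.0% in 5′ UTRs and 48.8% in 3′ UTRs. The alternative site was itself an exon start in RefSeq for 526 of 821 placed multiples of 3 and for 168 of 902 other shifts.

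**Figure D1:**
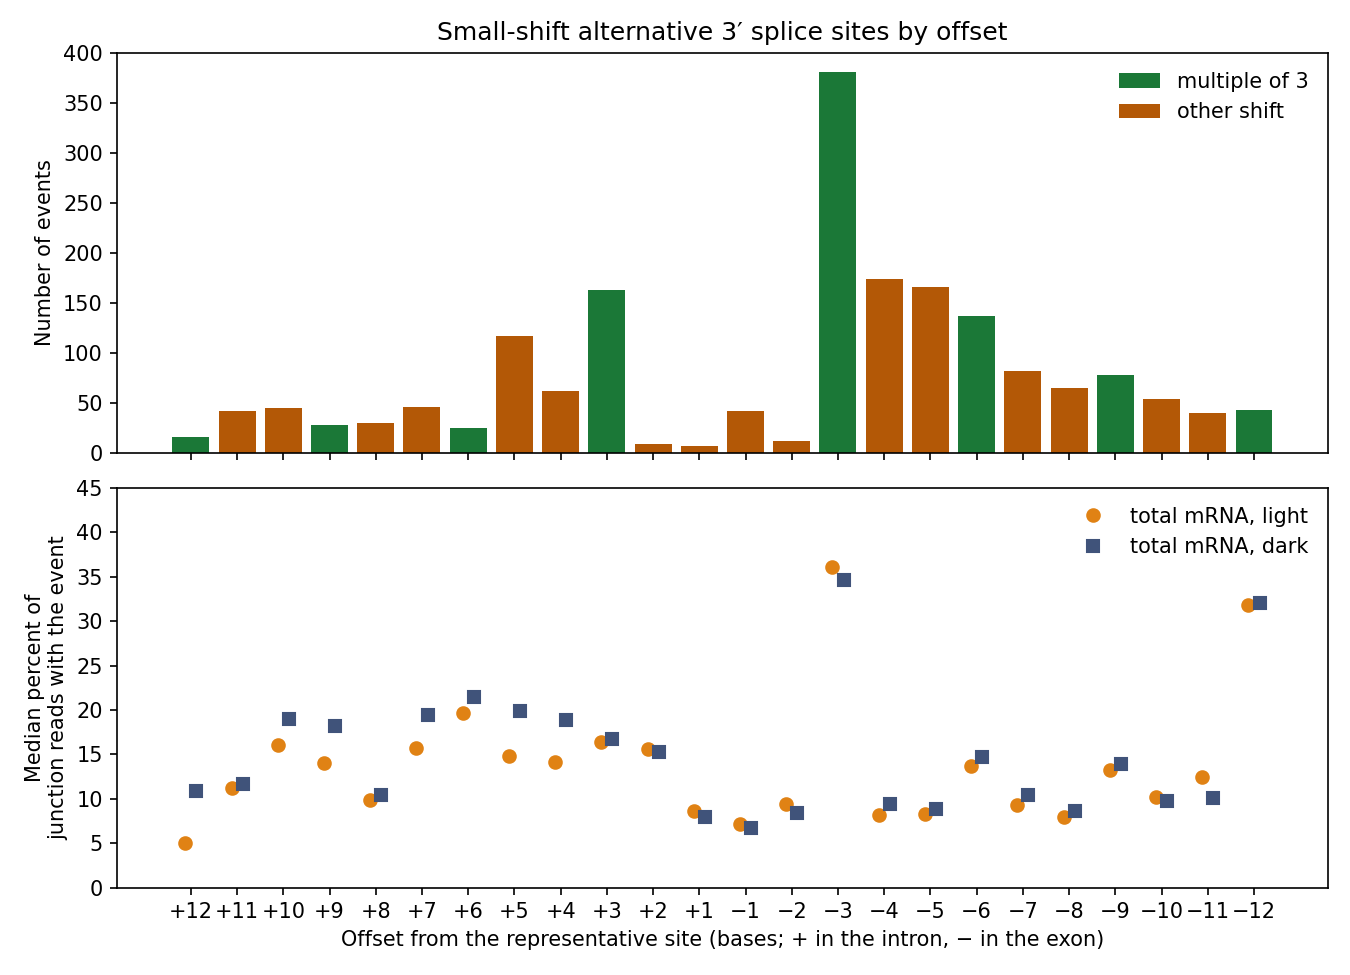
Number of events at each offset (upper panel, multiples of 3 in green, other shifts in brown) and median percent of reads with the event in light (circles) and dark (squares) total mRNA among events with at least 20 reads (lower panel). Positive offsets lie in the intron, and the offset of -3 stands out in both panels, with 381 events and medians of 36.1% in light and 34.7% in dark total mRNA.

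Sites shifted by a multiple of 3 were used more than other sites in all 4 libraries. Among the 680 events with polysomal percents, the median was 39.3% for 401 multiples of 3 and 16.8% for 279 other shifts in polysomal light mRNA, and 39.9% and 21.7% in polysomal dark mRNA. Over all 1609 events the medians were 20.5% for 747 multiples of 3 and 9.66% for 862 other shifts in total light mRNA, and 22.6% and 11.02% in total dark mRNA. The alternative site was the major one in both total libraries for 193 multiples of 3 (25.8%) and for 42 other shifts (4.87%). Polysomal percents were also listed more often for multiples of 3, at 53.7%, than for other shifts, at 32.4%. Every member reached at least 5 reads and 5% in 1 total library, and every member with polysomal percents at least 5.08% in 1 polysomal library. Sites of lower use are thus absent from both classes.

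The gap between the classes was found on the exon side. There the median was 26.2% for multiples of 3 and 8.43% for other shifts in light total mRNA, and 25.5% and 8.96% in the dark. On the intron side the medians were 16.1% and 14.7% in the light and 16.7% and 16.7% in the dark. Shifts of 3 bases carried part of the gap. At -3 the median was 36.1% in the light and 34.7% in the dark, against 16.4% and 16.7% at +3. Without shifts of 3 bases the gap between the medians of multiples of 3 and other shifts was 5.19 percentage points in light and 6.73 in dark total mRNA, against 10.9 and 11.6 points over all shifts. A shift of -12 had a high median as well, 31.8% in the light and 32.0% in the dark over 37 events.

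Position in the transcript did not remove the gap. In coding sequence the medians were 19.5% for 598 multiples of 3 and 9.60% for 687 other shifts in light total mRNA. In UTRs, outside the annotated reading frame, they were 21.6% for 108 multiples of 3 and 13.6% for 93 other shifts in the light, and 21.9% and 15.04% in the dark. Within coding sequence the new reading frame was followed on the RefSeq model, and a stop was called early when it lay more than 50 bases before the last exon junction. In-frame sites that kept the annotated stop had medians of 22.7% in light and 22.9% in dark total mRNA (543 events). In-frame sites that brought in a new stop codon had medians of 9.59% and 11.3% (41 events). Frame-changing sites with an early stop had medians of 9.68% and 11.1% (639 events), and those with a late stop 11.4% and 13.1% (38 events). In-frame sites with a new stop therefore lay near the frame-changing sites and not near the other in-frame sites.

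**Figure D2:**
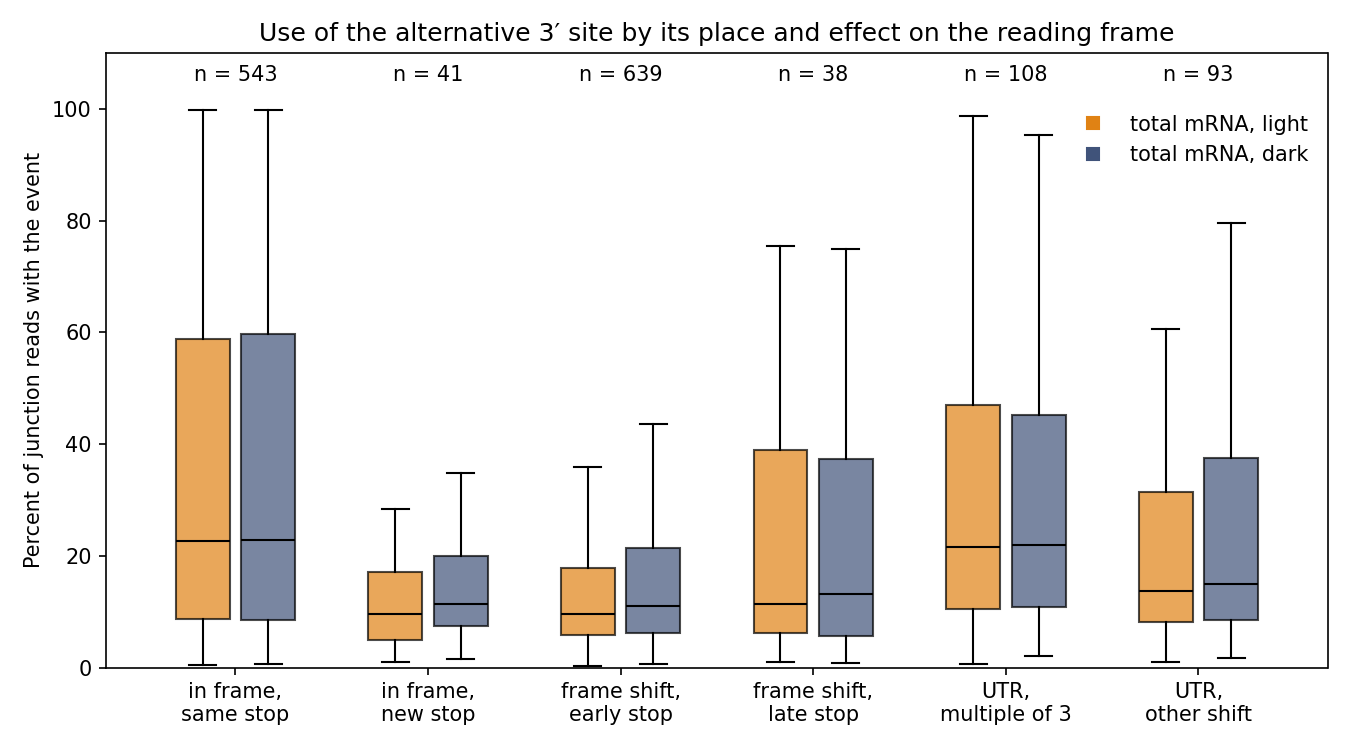
Percent of reads with the alternative site in light (orange) and dark (blue) total mRNA, by effect on the coding sequence or by UTR, for placed events with at least 20 reads. Boxes span the quartiles, black lines are medians and whiskers reach the last value within 1.5 times the box; in-frame sites with the same stop reach medians of 22.7% and 22.9%, and sites with an early stop 9.68% and 11.1%.

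Tandem sites 3 bases apart differed widely by the base before each AG. For 434 placed pairs with at least 20 reads, use of the downstream site is given here whichever site was representative. Where a TAG was followed by a CAG, the downstream CAG had a median use of 79.8% in light and 80.5% in dark total mRNA (104 pairs), and was the major site in 91 of the 104 in the light. An AAG followed by a CAG gave 93.5% and 93.3% (41 pairs). An AAG followed by a TAG gave 87.7% and 87.9% (17 pairs).

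In the reverse orders the downstream site was minor. A CAG followed by an AAG gave a median downstream use of 9.20% in the light and 10.5% in the dark (44 pairs), a TAG followed by an AAG 12.9% and 12.9% (26 pairs), and a CAG followed by a TAG 21.0% and 19.4% (30 pairs). With equal letters the downstream site had 43.8% and 42.6% in 103 CAG pairs, 62.8% and 66.8% in 38 TAG pairs, and 34.1% and 37.6% in 24 AAG pairs. Only 2 pairs had a GAG upstream and 5 a GAG downstream. The order C before T before A held for each pairing of different letters and in both total libraries, and the median of each of these groups was close in light and dark, with the TAG pairs furthest apart. Single pairs departed from their group: in CAG pairs downstream use in dark total mRNA ran from 1.67% to 99.2%.

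Polysomal mRNA gave the same order for the larger groups. Over the 72 TAG-CAG pairs with polysomal percents, the median downstream use was 77.5% in polysomal light and 81.7% in polysomal dark mRNA, and in total mRNA of the same pairs 79.5% in the light and 78.5% in the dark. Over 67 CAG pairs the polysomal medians were 44.8% and 45.1%. Over 24 pairs of CAG followed by AAG they were 10.99% and 14.0%. In the 12 pairs of AAG followed by TAG they were 57.3% in polysomal light and 56.4% in polysomal dark mRNA, against 85.1% and 82.0% in total mRNA of the same pairs. Sites 4 or more bases apart were pooled over both sides, so they cannot be set directly against the ordered tandem pairs. By the letters of the alternative site, the medians were 9.66% for AAG, 11.6% for CAG, 10.8% for TAG and 7.79% for 13 GAG sites in light total mRNA. By the letters of the representative site, they were 12.5% for AAG, 10.2% for CAG, 10.2% for TAG and 66.6% for 11 GAG sites.

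RS41, an arginine/serine-rich splicing factor, is a tandem of AAG and CAG in coding sequence. The downstream CAG was used in 83.4% of polysomal light, 75.4% of polysomal dark, 89.5% of total light (interval 86.0 to 92.4%) and 88.7% of total dark transcripts (84.0 to 92.4%). It was the major site in all 4 libraries, and the intervals in total mRNA overlapped. ARPC3, a subunit of the actin-nucleating ARP2/3 complex, has a CAG tandem in its 5′ UTR. Its downstream site had 70.6% in polysomal light, 18.2% in polysomal dark, 48.8% in total light and 55.9% in total dark mRNA. The polysomal libraries lay far apart, with no reads known for either, while the total libraries overlapped within counting error.

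Few alternative sites differed between light and dark total mRNA by more than counting error. In whole seedlings, a change of splicing within cells and a change in which cells supply the mRNA cannot be told apart. At a ratio of at least 1.5-fold, light over dark, 326 of 1609 events were higher and 401 lower, together 45.2%. Of all events with an alternative 5′ or 3′ site, 49.7% passed this ratio, 23.8% higher and 25.9% lower. When the exact intervals of the percents also had to lie apart, 16 were higher and 53 lower, which is 4.29%. Of all such events 6.31% passed this rule, 2.19% higher and 4.12% lower. The authors' deposited list of light-regulated events holds 188 of the members (10.1%), against 12.3% of all such events, and of the 188 the authors' ratio was higher in 49 and lower in 139. None of these shares was above that of all such events. The rule of 1.5-fold with intervals apart is stricter than counting error alone, since percents with overlapping intervals can still differ. Members used in most reads rarely reach the ratio. Above a mean of 50% in total mRNA, 2 of 259 members were higher and 1 lower at 1.5-fold. Percents in light and dark total mRNA followed each other across events (Pearson r 0.95, Spearman rho 0.78, n = 1609, events of the same libraries, given as a description).

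Sites that were not multiples of 3 were, taken over all such shifts, more often lower than higher in the light. Of 862 such events 207 were higher and 277 lower in light total mRNA, with a median difference of -1.57 percentage points. Of 747 multiples of 3, 119 were higher and 124 lower, with a median difference of 0.03 points. The shifts within a class were not alike. Shifts of 4 bases had 46 higher and 75 lower, of 5 bases 57 and 82, of 7 bases 23 and 38, and of 10 bases 15 and 27. Shifts of 1 base had 19 higher and 11 lower, of 2 bases 4 and 3, of 8 bases 24 and 24, and of 11 bases 19 and 17, so the lower counts came from shifts of 4, 5, 7 and 10 bases. Among multiples of 3, shifts of 12 bases had 6 higher and 14 lower, with a median difference of -2.45 points. With the intervals apart the counts were 9 higher and 14 lower for multiples of 3, and 7 higher and 39 lower for other shifts. In the authors' list 30 multiples of 3 were higher and 40 lower, and 19 other shifts were higher and 99 lower. Over all alternative 5′ and 3′ site events the authors' list has 327 higher and 624 lower.

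Polysomal mRNA, which comes from other libraries, had a difference between the classes in the same direction, but not from the same shifts alone. At 1.5-fold 114 of 680 events were higher and 172 lower in polysomal light mRNA, together 42.1%. Of all events with an alternative 5′ or 3′ site 43.6% passed, 18.5% higher and 25.1% lower. Multiples of 3 had 61 higher and 68 lower, with a median difference of -0.42 points. Other shifts had 53 higher and 104 lower, with a median difference of -3.47 points. Shifts of 4 bases had 12 higher and 25 lower, of 5 bases 19 and 35, and of 7 bases 7 and 13, as in total mRNA more often lower. Unlike in total mRNA, shifts of 8 bases had 2 higher and 11 lower, and of 11 bases 3 and 8. Among multiples of 3, shifts of 9 bases had 1 higher and 11 lower, and shifts of 3 bases 47 and 43.

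Events of the classes differ in level and depth, and both bear on a ratio. The median number of reads was 121 in total light and 92 in total dark mRNA for multiples of 3, and 101 and 73 for other shifts. With at least 100 reads in both libraries, 32 multiples of 3 were higher and 39 lower (median difference 0.20 points), and 46 other shifts were higher and 82 lower (-1.37 points). Among events with a mean of 20 to 50% in total mRNA, 21 multiples of 3 were higher and 19 lower, with medians of 0.54 points in total and -1.55 points in polysomal mRNA. At that level 20 other shifts were higher and 40 lower, with medians of -3.55 and -4.84 points. Between 10 and 20% multiples of 3 were more often lower as well, with 31 higher and 40 lower and a median of -1.60 points in total mRNA, beside 42 higher and 79 lower and -3.08 points for other shifts. Among events up to 10% the median differences in total mRNA were 0.27 points for multiples of 3 and -0.08 points for other shifts. At this lowest level 66 of 208 multiples of 3 were higher and 64 lower, and 144 of 422 other shifts were higher and 158 lower. An event could enter the list through the total library where it was higher, and how far this bears on the light counts was not tested.

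By reading frame, sites that brought in an early or new stop codon were more often lower than higher in the light, and so were some other classes. Frame-changing sites with an early stop were higher in 153 and lower in 225 of 639 events in light total mRNA (median difference -2.04 points), and higher in 43 and lower in 85 of 200 in polysomal light mRNA (-5.29 points). In-frame sites with a new stop were higher in 8 and lower in 16 of 41 in total mRNA (-2.31 points), and higher in 3 and lower in 9 of 15 in polysomal mRNA (-3.56 points). In-frame sites with the same stop were higher in 92 and lower in 88 of 543 in total mRNA (0.25 points), and higher in 49 and lower in 44 of 309 in polysomal mRNA (-0.13 points). Frame-changing sites with a late stop were higher in 10 and lower in 7 of 38 in total mRNA, and higher in 1 and lower in 8 of 26 in polysomal mRNA, with median differences of 0.78 points in total and -2.94 points in polysomal mRNA. The 24 events whose representative form already has an early stop on the RefSeq model had 2 higher and 11 lower in total mRNA, with a median of -4.40 points. The UTR events with other shifts had 17 higher and 17 lower in total mRNA, with a median of -1.64 points. Whether transcript decay has a part in these differences was not tested.

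Among events with at least 50 reads in both total libraries, the largest fall in total mRNA was that of SETH2 at -11, a frame-changing site with an early stop in a gene for the first step of glycosylphosphatidylinositol anchor synthesis. It had 15% in polysomal light, 29.6% in polysomal dark, 13.3% in total light (8 of 60 reads, interval 5.94 to 24.6%) and 46.7% in total dark mRNA (42 of 90 reads, 36.1 to 57.5%). Light was lower than dark in both fractions. ALG12 at -5, in a mannosyltransferase gene of N-glycan assembly, had 15% in total light (9 of 60 reads) and 40.5% in total dark mRNA (32 of 79 reads). AT3G51390 at +5 encodes the protein S-acyl transferase PAT10. It had 9.76% in polysomal light, 17.6% in polysomal dark, 5.30% in total light (7 of 132 reads) and 29.9% in total dark mRNA (41 of 137 reads).

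Among the 5 largest falls with at least 50 reads 2 did not change the frame. AT4G28030 at +9, annotated as an acyl-CoA N-acyltransferase, adds an in-frame stop, and had 12.99% in polysomal light, 16.1% in polysomal dark, 17.1% in total light (56 of 327 reads) and 39.2% in total dark mRNA (109 of 278 reads). Polysomal dark lay near both light libraries and below total dark. NEF1 at +9, a gene needed for the pollen wall, keeps its stop, and had 24.0% in total light (25 of 104 reads) and 45.3% in total dark mRNA (48 of 106 reads). The intervals of light and dark lay apart for all 5, and all 5 are in the authors' deposited light-regulated list.

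With at least 50 reads in both total libraries, the largest rise was that of AT4G38200 at +10, annotated as a SEC7-like guanine nucleotide exchange factor. It had 46.3% in total light (31 of 67 reads, interval 34.0 to 58.9%) and 20% in total dark mRNA (16 of 80 reads, 11.9 to 30.4%). The site shifts the frame and brings an early stop. AT5G66250 at +5, in the 5′ UTR of a gene annotated as kinectin-like, had 62.5% in polysomal light, 28.6% in polysomal dark, 60.5% in total light (92 of 152 reads) and 39.6% in total dark mRNA (36 of 91 reads). Light was higher in both fractions. SUVH9 at -9 lies in the 5′ UTR of a gene of RNA-directed DNA methylation, and had 42.4% in total light (25 of 59 reads) and 21.4% in total dark mRNA (12 of 56 reads), with overlapping intervals.

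The other 2 of the 5 largest rises with at least 50 reads had no AG at the alternative site on the RefSeq model. AT4G13040 at -1, annotated as an integrase-type DNA-binding protein, had 6.04% in polysomal light, 0.985% in polysomal dark, 48.6% in total light and 25% in total dark mRNA. The polysomal libraries lay far below the total ones. AT3G27610 at -3, annotated as a nucleotidylyl transferase, had 77.8% in polysomal light, 80.0% in polysomal dark, 82.5% in total light and 63.2% in total dark mRNA. Only total dark lay lower, and the intervals in total mRNA overlapped.

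**Figure D3:**
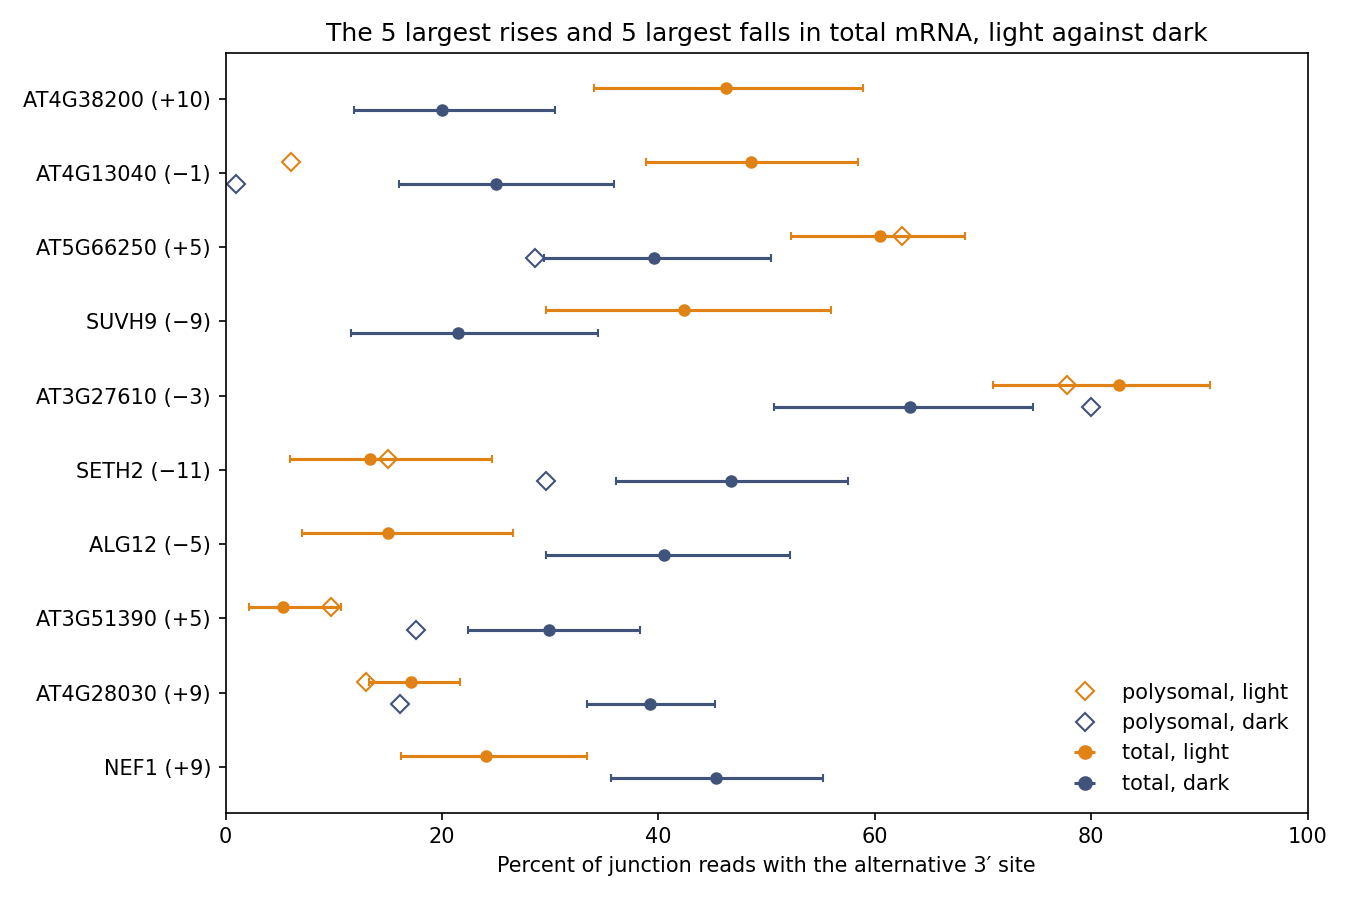
Percent of reads with the alternative site for the 5 events with the largest rise and the 5 with the largest fall in light in total mRNA, among events with at least 50 reads in both total libraries, offset in brackets. Filled circles are total mRNA with exact 95% intervals and open diamonds polysomal mRNA, orange for light and blue for dark; SETH2 had 13.3% in light and 46.7% in dark total mRNA, and 4 events have no polysomal percents.

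Seen over both fractions, few events moved past 1.5-fold in each. Of the 680 events, 80 were higher and 99 lower in light total mRNA. In polysomal light mRNA 114 were higher (16.8%) and 172 lower (25.3%). Higher in both were 22, which is 27.5% of those higher in total and 19.3% of those higher in polysomal mRNA. Lower in both were 39, which is 39.4% and 22.7%. Opposite directions were found for 31 events that were higher in total and lower in polysomal mRNA, and for 21 that were lower in total and higher in polysomal mRNA. Of the events higher in total mRNA, more were thus lower than higher in polysomal mRNA. The same overlap over all events with an alternative 5′ or 3′ site is not given here.

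Between polysomal light and dark mRNA, the largest differences among events with at least 50 reads in both total libraries were found in ARPC3, described above, and in the following genes. OVA5 at -7, a lysyl-tRNA synthetase gene, had 6.67% in polysomal light, 88.9% in polysomal dark, 9.64% in total light and 20.7% in total dark mRNA. AT5G49840 at +5, annotated as an ATP-dependent Clp protease, had 11.1%, 83.3%, 13.1% and 15% in the same order of libraries. In both genes the polysomal dark library alone was high. AT5G07360 at -5, annotated as an amidase, had 20% in polysomal light, 85.7% in polysomal dark, 7.27% in total light and 19.6% in total dark mRNA. SPPA at +10, a chloroplast signal peptide peptidase, had 66.7% in polysomal light, 14.3% in polysomal dark, 24.3% in total light and 22.4% in total dark mRNA. In SPPA the polysomal light library alone was high. The gene levels of these 4 genes in polysomal mRNA were between 4.04 and 18.04 RPKM. No reads are known for their polysomal percents, which may rest on few reads.

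Polysomal and total mRNA were compared over the 680 events with polysomal percents, which are 42.3% of the 1609 events. All of them reached at least 5.08% in 1 polysomal library. Sites rarer than that in both polysomal libraries are absent, so the directions below describe the listed events and not all members. In the dark 154 of 680 events were at least 1.5-fold higher in polysomal than in total mRNA and 125 lower, together 41.0%. Of all events with an alternative 5′ or 3′ site 44.0% passed, 23.8% higher and 20.1% lower. In the light 117 were higher and 113 lower, together 33.8%, against 40.2% of all such events, of which 19.9% were higher and 20.4% lower. The median difference, polysomal minus total, was 0.89 points in the dark and 0.04 points in the light. Multiples of 3 had median differences of 0.49 and 0.15 points, and other shifts of 1.56 and -0.05 points. Frame-changing sites with an early stop had 1.43 points in the dark and 1.01 points in the light over the 200 of 639 events with polysomal percents. In-frame sites with a new stop had -4.85 and -4.14 points over 15 events, with 3 higher and 7 lower in the dark and 2 higher and 6 lower in the light.

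**Figure D4:**
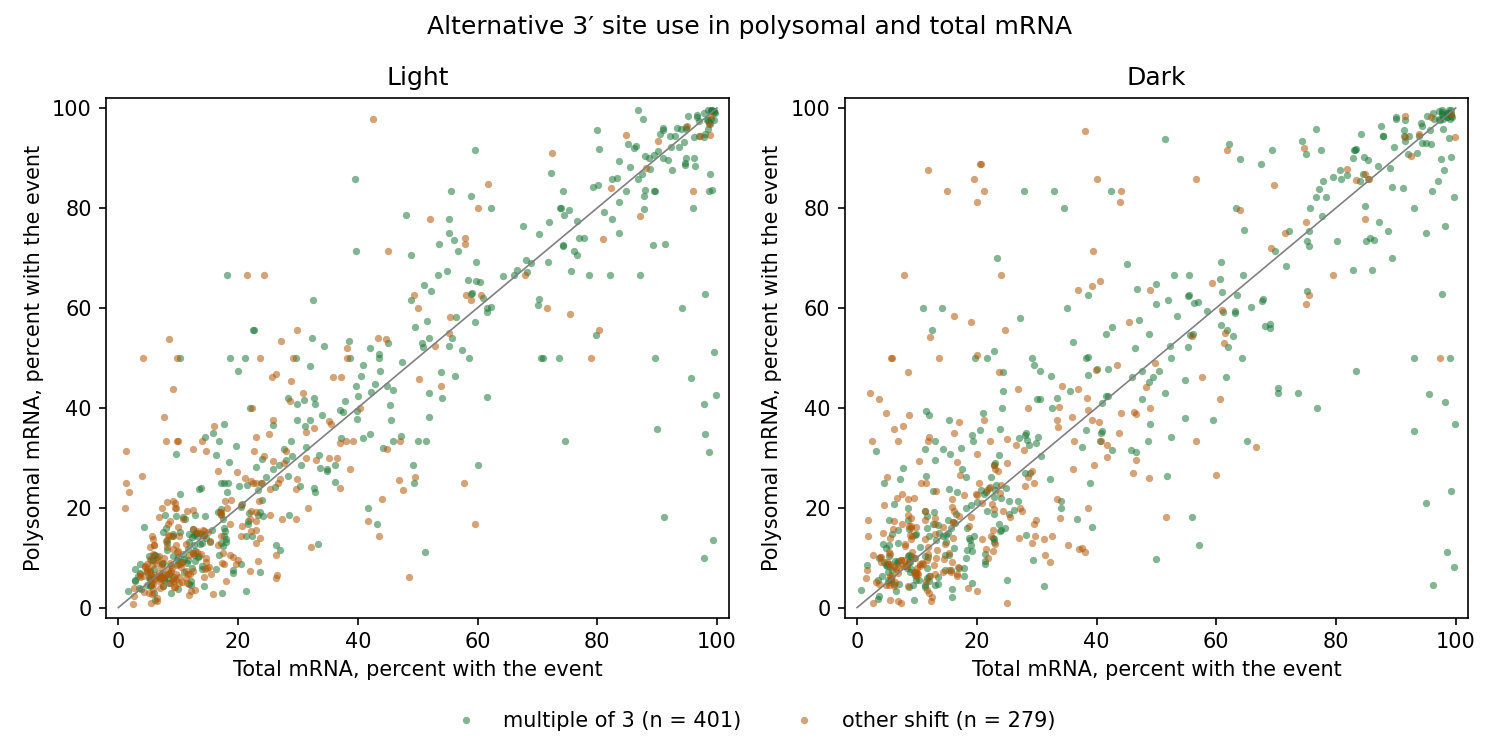
Percent with the alternative site in polysomal mRNA (vertical axis) against total mRNA (horizontal axis), in light (left) and dark (right), for 401 multiples of 3 (green) and 279 other shifts (brown); the grey line marks equal percents. Points lie along the line, other shifts gather at low percents, and a few multiples of 3 near 100% in total mRNA lie far below the line in polysomal mRNA.

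A small group of sites was nearly complete in total mRNA and minor in polysomal mRNA. Of 37 events at 95% or more in both total libraries and with polysomal percents, 17 were also at 95% or more in both polysomal libraries, and 6 were below 50% in both. No such count over all events with an alternative 5′ or 3′ site stands beside these. Whether the pattern is particular to small 3′ shifts was not tested. CST at -3, a receptor-like cytoplasmic kinase of organ abscission, had 13.5% in polysomal light, 11.1% in polysomal dark, 99.3% in total light (146 of 147 reads) and 98.5% in total dark mRNA (134 of 136 reads). EMB2820 at -12, a tRNA adenosine deaminase gene, had 31.2%, 23.4%, 98.6% and 99.1% in the same order. The GAG-CAG tandem of BCA5, a beta carbonic anhydrase, had 42.6%, 36.8%, 99.9% and 99.8%. AT5G63550 at -3, annotated as a DEK domain chromatin protein and just under 95% in the light, had 18.2%, 4.60%, 91.2% and 96.2%. In these 4 genes both polysomal libraries lay below both total libraries. Light and dark were close within each fraction, except for the polysomal libraries of AT5G63550. AT1G42470 at -3, a Patched family gene without an AG at that site on the RefSeq model, had 9.85%, 8.17%, 97.9% and 99.7%. No reads are known for the polysomal percents of these genes, which may rest on few reads. Gene levels in polysomal light and dark mRNA were 7.52 and 11.5 RPKM for CST and 6.78 and 10.2 RPKM for EMB2820. They were 7.18 and 6.52 RPKM for AT5G63550 and 5.15 and 21.8 RPKM for AT1G42470.

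The opposite case was found in SNL2 at +5, in the 5′ UTR of a SIN3-like corepressor gene. It had 97.8% in polysomal light, 95.4% in polysomal dark, 42.5% in total light (51 of 120 reads) and 38.0% in total dark mRNA (57 of 150 reads). Both polysomal libraries lay far above both total libraries. GAUT3 at -4, a galacturonosyltransferase gene, had 33.3% in polysomal light, 83.3% in polysomal dark, 9.86% in total light and 21.2% in total dark mRNA. AT2G40270 at -5, annotated as a protein kinase, had 50% in both polysomal libraries, 4.12% in total light and 5.88% in total dark mRNA. No reads are known for the polysomal percents of SNL2, GAUT3 and AT2G40270, which may rest on few reads. Gene levels in polysomal light and dark mRNA were 4.74 and 8.87 RPKM for SNL2. They were 4.01 and 7.17 RPKM for GAUT3, and 6.845 and 11.7 RPKM for AT2G40270.

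The members with the most reads were close between light and dark total mRNA. CAT2 at -9, a cationic amino acid transporter gene, had 4.60% in polysomal light, 7.19% in polysomal dark, 5.46% in total light (154 of 2819 reads) and 5.201% in total dark mRNA (242 of 4653 reads). Its polysomal percents differed by more than 1.5-fold, a ratio, light over dark, of 0.640. AT1G56220 at -9, a dormancy and auxin associated gene with a GAG as its representative site, had 90.4%, 89.7%, 88.0% and 85.3% in the same order. APA1 at -1, an aspartic proteinase gene without an AG at that site, had 5.55% in total light and 5.65% in total dark mRNA and no polysomal percents. A nearly complete shift that is no multiple of 3 was that of AT2G26500 at +4, in the 5′ UTR of the gene of the cytochrome b6f subunit PetM. It had 98.4% in polysomal light, 98.7% in polysomal dark, 99.0% in total light and 99.2% in total dark mRNA, while its gene level was 463 RPKM in total light and 116 RPKM in total dark mRNA. Its alternative site is an exon start in RefSeq. AT4G12650 at +4 (99.8% in total light and 99.7% in total dark mRNA) and AT1G42470 at +5 (98.8% and 99.8%) had no AG at the alternative site on the RefSeq model.

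Among the SR protein genes, 5 had members, of which RS41 is described above. SR34a at +12, an SR protein gene, where the site adds an in-frame stop, had 2.22% in total light (9 of 405 reads, 1.02 to 4.18%) and 10.9% in total dark mRNA (11 of 101 reads, 5.56 to 18.7%). The event is in the authors' deposited light-regulated list, and the intervals lay apart. SR34 at -4, in the 5′ UTR, had 13.3% in polysomal light, 34.9% in polysomal dark, 15.2% in total light and 16.2% in total dark mRNA, and polysomal dark alone was higher. SCL33 at -3 had 69.1%, 60.1%, 71.8% and 65.9%, and SR34b at -11 had 33.3% (6 of 18 reads) in total light and 18.6% (8 of 43 reads) in total dark mRNA. In SCL33 and SR34b the alternative site had no AG on the RefSeq model.

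Most genes for factors that choose the 3′ splice site had somewhat lower levels in light than in dark total mRNA. All but SMP2 and SR45, of 14, were lower. U2AF35A, a small U2AF subunit, had 57.5 RPKM in total light and 95.9 RPKM in total dark mRNA, and U2AF35B had 28.9 and 49.0 RPKM. On a log2(RPKM + 1) scale, none of these factors of 3′ splice site recognition and second-step splicing passed 2-fold in light against dark total mRNA, where 16.4% of 17684 genes did (10.7% higher and 5.73% lower). Their median log2 ratio was -0.25, against -0.02 over all genes. The largest ratio was that of CUV, the PRP16 helicase, with 30.2 RPKM in total light and 56.2 RPKM in total dark mRNA. In polysomal mRNA 2 of the 14 were lower past 2-fold in the light and none higher, where 19.6% of genes passed (9.35% higher and 10.3% lower). They were CUV, with 7.14 RPKM in polysomal light and 20.03 RPKM in polysomal dark mRNA, and PRP8A, the central spliceosome scaffold, with 5.20 and 11.5 RPKM. No factor of the 18 SR proteins and 3 NMD factors passed 2-fold with light in total mRNA on this scale, and in polysomal mRNA SR34b alone was lower past 2-fold. SR34 lay at the edge in total mRNA, with 43.25 RPKM in total light and 87.1 RPKM in total dark mRNA, a log2 ratio of -0.99 that would pass 2-fold without the added 1 RPKM.

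Polysomal levels of the same factors were low relative to total mRNA. In the dark 8 of 14 were lower past 2-fold and none higher, with a median log2 ratio, polysomal over total, of -1.09, against -0.14 over all genes. Of all genes 32.7% passed, 16.5% higher and 16.2% lower. In the light 8 were lower as well, with a median of -1.18 against -0.31, and 34.1% of genes passed (12.8% higher and 21.4% lower). U2AF65A, a large U2AF subunit, had 10.7 RPKM in polysomal light, 19.8 RPKM in polysomal dark, 44.2 RPKM in total light and 74.3 RPKM in total dark mRNA. PRP18A had 44.8 RPKM in polysomal dark and 31.6 RPKM in total dark mRNA, and was above its total level in both conditions. Of the NMD factors UPF1, UPF2 and UPF3, all 3 had lower levels in polysomal than in total mRNA in both conditions, and 3 were lower past 2-fold in the light and 2 in the dark. Of the 18 SR proteins 2 were lower past 2-fold in the light, and 2 were lower and 1 higher past 2-fold in the dark.

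Larger 3′ shifts and small 5′ shifts can be set beside the members. Among 1099 events with a 3′ shift over 12 bases, medians were 13.8% for 302 multiples of 3 and 10.6% for 797 other shifts in light total mRNA, and 14.5% and 11.1% in the dark. At 1.5-fold the other shifts over 12 bases had 221 higher and 239 lower in light total mRNA. In polysomal light mRNA they had 44 higher and 100 lower of 271, so more lower than higher was found in larger shifts as well. Multiples of 3 over 12 bases had 73 higher and 68 lower in total, and 24 and 32 in polysomal light mRNA. The 542 alternative 5′ sites with a shift of 1 to 12 bases had medians of 12.1% in total light and 12.4% in total dark mRNA. At the edge of the rule, 59 events with a shift of 12 bases had medians of 19.1% in the light and 27.6% in the dark without a minimum of reads, and 65 events with a shift of 13 bases had 9.33% and 11.5%.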

How the data were processed

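The deposited tables were made by the authors from 4 mRNA sequencing libraries. The genome build was TAIR10, per the submitters' processing notes. Aligner, read counter and strand setting: not given in the sources used here. Per the file headers, the event tables give event reads of total mRNA as counts (a few of the light library are not whole and are estimated counts), the percent with the event, the authors' log2 ratio and an unadjusted chi-square p-value by the authors. The polysomal event table gives percent values by the authors without reads. The gene table gives the authors' counts and RPKM values per gene, and 2 of its columns (polysomal reads) were not used. Reads listed per gene sum to 91087442 in total light and 64950412 in total dark mRNA.

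The total behind each percent was recovered as event reads divided by percent, and came out whole within 0.01 for 100% of the 1864 members. It equals the reads of the event plus those of the representative site in the 32 introns with more than one member. An event was counted as higher or lower when its percents differed at least 1.5-fold and both total libraries had at least 20 reads. With 1 library per group no test of the conditions was made. Exact Clopper-Pearson intervals (scipy 1.17.1, pandas 2.3.3, Python 3.11.15) cover counting error only. Gene levels were compared as log2(RPKM + 1) over the genes that averaged 1 RPKM or more, and this scale understates changes of low genes.

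Events carry a transcript name, exon numbers and offsets but no coordinates. Sites were placed on the RefSeq model of the same transcript name (TAIR10.1) by exon number, and gene symbols were matched for 1862 members. Where the model lacks an AG at the alternative site, no sequence is shown. For shifts over 1 base the model may differ from the authors' annotation. At a shift of 1 base the representative and alternative sites cannot both end in AG, whatever the model. The calls were run on simulated reads, where events given a change were called higher more often than unchanged events. The share of the 1.5-fold calls above that counting error alone could give is not stated here. The members and gene lists were chosen with earlier results of these data known. Named events, all with at least 50 reads in both total libraries except those in listed genes, are the 5 largest rises and falls in light in total mRNA, the 4 highest and 4 lowest polysomal minus total differences, the 3 largest polysomal light rises and falls, the 4 with most reads, the 3 highest other shifts, and every member in the listed genes; BCA5 was named after its values were seen, and 1 item that the rule names is not reported here. Alternatives were another fold, a difference in points, other read minimums, 5 points added to the percents, narrower offsets, 1 event per gene and other RPKM settings.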

Additional observations from a re-analysis of the deposited data

Results flagged for a closer look

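AT1G27070 at -4, in a gene annotated as related to the AMP-activated protein kinase, moved in opposite directions in the fractions. It had 53.8% in polysomal light and 6.25% in polysomal dark mRNA, a difference of 47.6 percentage points, and 8.43% in total light (7 of 83 reads) and 16.7% in total dark mRNA (10 of 60 reads). The difference between the fractions was not tested, each value is 1 library, and the intervals in total mRNA overlapped. The site shifts the frame and brings an early stop, and lies at chr1:9398278-9398327 (minus strand, TAIR10.1).
AT1G27070, chr1:9398278-9398327, minus strand: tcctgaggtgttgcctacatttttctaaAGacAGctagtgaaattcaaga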

How the results depend on the processing

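Counts of events past the fold depended on the rule, and in every setting tried for light in total mRNA more events were lower than higher. Of the 727 events past 1.5-fold in light against dark total mRNA, 453 remained past 2-fold, and other rules gave 318 at a difference of 10 points, 460 with at least 50 reads, 478 with offsets of 1 to 6 bases and 69 with the exact 95% intervals apart, an alternative added after seeing the data. At 2-fold the counts were 164 of 286 for light in polysomal mRNA, 159 of 279 for polysomal over total in the dark and 120 of 230 in the light, where adding 5 points to the percents gave 153. The gap in medians between multiples of 3 and other shifts, 11.6 points in the dark and 10.9 in the light, was 6.73 and 5.19 without shifts of 3 bases, 6.21 and 4.85 with offsets of 4 to 12 bases, and 6.84 in the dark in UTRs (added after seeing the data). With a pseudocount of 5 RPKM the genes past 2-fold were 1 and not 2 of the 3′ splice site factors and 0 and not 1 of the SR proteins for light in polysomal mRNA, 1 and not 2 of the NMD factors for polysomal over total in the dark, and 1 and not 2 of the SR proteins in the light. Of 112 ratios of named events, 5 fell under 1.5-fold when 5 points were added, and 107 stayed on their side. The cause of these shifts was not tested, beyond that fewer events are tested under a narrower rule. Depth limits the percents in total mRNA, with a median of 67 reads in the dark, and is unknown for polysomal mRNA. No paired analysis was possible because each group has 1 library.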
